A study of Mus musculus with 2 samples.

Results

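Expression of 10 genes of the immediate early response was followed across marker-defined cell classes of mouse bone marrow: the AP-1 subunit genes Fos, Fosb, Jun, Junb and Jund, and Egr1, Ier2, Zfp36, Nr4a1 and Dusp1. They were taken by symbol, and all 10 were found among the 32286 features of the count matrices. The cells were primary hematopoietic bone marrow cells, measured by droplet-based sequencing of transcript 3′ ends in 2 libraries. The control library carried Mx1Cre+/- with both Rosa26 alleles unaltered (Mx1Cre+/-;Rosa26+/+), and the library called MYC below carried Mx1Cre+/- with LSL-MYC on both Rosa26 alleles (Mx1Cre+/-;Rosa26LSL-MYC/LSL-MYC). Mx1Cre is a Cre recombinase under an interferon-inducible promoter that is active in hematopoietic and some other cells, and LSL stands for a loxP-flanked stop cassette whose excision by Cre lets MYC be transcribed. Both genotypes carried Mx1Cre. Age, sex, any induction of Cre, and the number of animals per library are not given in the sources used here. The series asked how marrow cells differ in expression once hematopoietic stem cells overexpress MYC. Each group is 1 library, so there is no test between the groups. Intervals are given at 95%, and those of levels, ratios and shares take in counting error alone. Those of medians rest on the spread over genes, which are not replicates, and not on counting error.

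Immediate early genes are transcribed within minutes of a stimulus from factors already present in the cell. MAP kinases reach the serum response factor and its ternary complex partners at CArG boxes and the CREB factors at cyclic AMP response elements, and the genes are switched off again within a few hours. Proteins of the Fos and Jun families pair through leucine zippers to form AP-1, which binds the site TGANTCA. Egr1 is a zinc finger factor and Nr4a1 an orphan nuclear receptor. Zfp36 codes for tristetraprolin, which binds AU-rich elements and brings about decay of cytokine transcripts, and Dusp1 codes for a phosphatase that inactivates MAP kinases, so both belong to the negative feedback of the response. In leukocytes the same genes respond to cytokines and microbial products, and they are also known to be induced while a tissue is taken apart into single cells.

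Promoter windows from 250 bases before to 50 bases after the start site were taken from RefSeq (GRCm38.p6) for 8 of the 10 genes, all but Egr1 and Ier2, and were searched on both strands for the CArG box, TGACGTCA, TGANTCA and CACGTG. The 150 bases upstream of the start are shown for the feedback genes Zfp36 and Dusp1, the genes most often lower in the MYC library, and for Fos and Junb, whose levels went with theirs across the cell classes. Capitals mark the matches.
Zfp36, chr7:28379229-28379378, minus strand: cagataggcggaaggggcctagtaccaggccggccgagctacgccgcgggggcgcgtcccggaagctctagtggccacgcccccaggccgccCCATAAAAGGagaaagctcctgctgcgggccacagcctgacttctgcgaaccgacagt
Dusp1, chr17:26508473-26508622, minus strand: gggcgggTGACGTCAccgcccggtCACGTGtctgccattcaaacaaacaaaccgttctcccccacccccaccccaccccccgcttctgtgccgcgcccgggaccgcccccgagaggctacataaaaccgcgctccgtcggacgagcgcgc
Fos, chr12:85473740-85473889, plus strand: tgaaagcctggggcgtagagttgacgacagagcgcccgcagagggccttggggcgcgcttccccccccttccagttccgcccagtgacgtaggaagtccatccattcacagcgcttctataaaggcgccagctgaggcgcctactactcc
Junb, chr8:84978749-84978898, minus strand: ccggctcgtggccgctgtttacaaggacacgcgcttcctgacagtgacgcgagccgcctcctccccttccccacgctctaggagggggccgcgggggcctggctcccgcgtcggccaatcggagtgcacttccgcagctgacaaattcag
Zfp36 had a CArG box starting 58 bases before the start site, a motif that 1.64% of all 32544 promoter windows held. Dusp1 had TGACGTCA starting 143 bases before the start, found in 1.80% of all windows, and CACGTG, the E-box that MYC can bind, starting 126 bases before it, found in 7.17% of all windows. None of the 8 windows held TGANTCA, which 7.79% of all windows held, and Fos and Junb held none of the 4 motifs between 250 bases before and 50 bases after the start. A match is a sequence description and no evidence of binding.

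In the GENCODE vM21 annotation of GRCm38 all 10 are protein-coding. Fos (ENSMUSG00000021250) is at chr12:85473890-85477273 on the plus strand, Fosb (ENSMUSG00000003545) at chr7:19302696-19310051 on the minus strand and Jun (ENSMUSG00000052684) at chr4:95049034-95052222 on the minus strand. Junb (ENSMUSG00000052837) at chr8:84974484-84978718 and Ier2 (ENSMUSG00000053560) at chr8:84661331-84662852 are both on the minus strand of the chromosome that also holds Jund (ENSMUSG00000071076, chr8:70698949-70700616, plus strand). Egr1 (ENSMUSG00000038418) is at chr18:34859823-34864984 on the plus strand and Nr4a1 (ENSMUSG00000023034) at chr15:101254269-101274795 on the plus strand. Zfp36 (ENSMUSG00000044786) is at chr7:28376784-28380253 and Dusp1 (ENSMUSG00000024190) at chr17:26505590-26562128, both on the minus strand.

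The deposited matrices held 131884603 unique molecular identifiers (UMIs) in 17073 barcodes of the control and 110012176 in 14496 barcodes of the MYC library. Filtering kept 14903 control cells and 12540 MYC cells, whose median depths were 5343 and 6016 UMIs. The libraries shared 97 cell barcode sequences. Clusters were named from marker genes, so each name below stands for cells like that type, and 8 classes had at least 100 cells in each library. The class called macrophages includes a cluster whose leading genes are shared with dendritic cells. Low-depth clusters that stayed unnamed held 17.2% of control and 21.5% of MYC cells, with median depths of 753 and 809 UMIs. Where their levels are given below, they show what cells of such low depth held. The members and all other listed genes were left out when the cells were clustered.

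Among the named classes 6 of the 10 genes, Fos, Junb, Egr1, Ier2, Zfp36 and Dusp1, were highest in mature neutrophils in both libraries. Fosb was highest in plasma cells, Jun in basophils or mast cells, Jund in B cells or plasma cells, and Nr4a1 in monocytes or macrophages. Levels are UMIs summed over the cells of a class per 1000000 UMIs of that class (CPM), control before MYC library. Fos was at 867 and 807 CPM in mature neutrophils. It was at 340 and 330 CPM in plasma cells, at 288 and 299 CPM in macrophages and at 198 and 177 CPM in monocytes. In the control it was lowest in granulocyte progenitors (17.8 and 26.3 CPM) and erythroid cells (15.3 and 21.1 CPM), whose control intervals overlapped, and in the MYC library it was at 19.0 CPM in stem or multipotent progenitors. Junb and the feedback genes also stood far higher in mature neutrophils than in any other named class. Junb stood at 1577 and 1488 CPM in mature neutrophils against 322 and 308 CPM in macrophages and 298 and 391 CPM in basophils or mast cells, the last 2 with overlapping intervals in the control. Zfp36 stood at 1433 and 1129 CPM in mature neutrophils, followed by immature neutrophils with 433 and 330 CPM. Dusp1 was at 783 and 620 CPM in mature neutrophils against 69.3 and 57.2 CPM in macrophages and 68.4 and 70.2 CPM in basophils or mast cells, the next named classes, whose intervals overlapped.

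**Figure D1:**
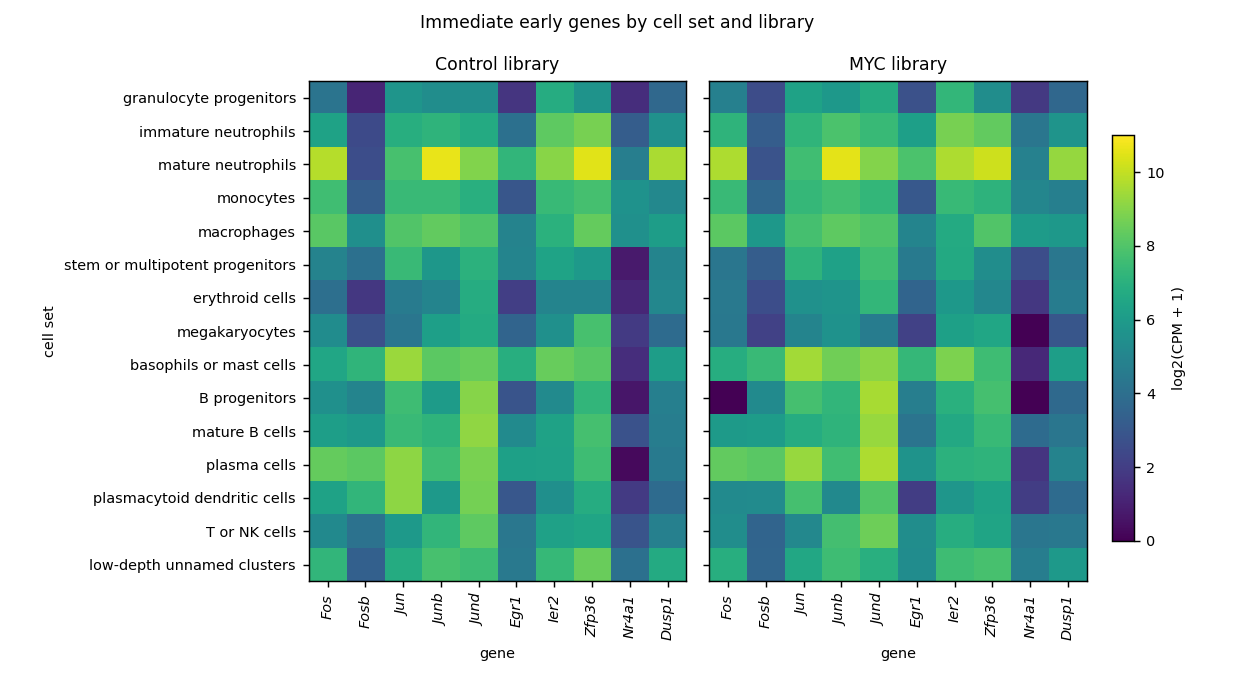
Levels of the 10 genes (columns) in each cell set (rows) as log2(CPM + 1), control library on the left and MYC library on the right. Mature neutrophils carry the highest Fos, Junb, Zfp36 and Dusp1 in both panels, while Fosb is highest in plasma cells and Jun in basophils or mast cells. Sets with under 100 cells in a library (B progenitors, plasma cells, plasmacytoid dendritic cells, megakaryocytes) rest on few cells.

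Fosb and Jun had another distribution from Fos. Fosb, a Fos family protein that cannot form AP-1 without a partner, was at 297 and 294 CPM in plasma cells and at 147 and 172 CPM in basophils or mast cells. In mature neutrophils, the class with the most Fos, Fosb was at only 5.15 and 6.13 CPM. Jun was highest in basophils or mast cells with 653 and 708 CPM, followed by plasma cells with 556 and 637 CPM. In plasmacytoid dendritic cells Jun was at 554 CPM in 246 control cells, whose interval overlapped with that of plasma cells, and at 218 CPM in only 64 cells of the MYC library. Over 20 points, which were 10 cell sets in each of the 2 libraries, the log2 levels of Zfp36 and Fos had r = 0.93 and those of Junb and Fos r = 0.92, against r = 0.25 for Fosb and Fos. No cell is in more than 1 point, but the points of a library share its preparation and depth, and the 3 neutrophil stages a lineage, so the coefficients are descriptions. Fosb went most closely with Jun, at r = 0.70.

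Jund is the Jun family member that many cells express without stimulation. In the control it ranged from 41.9 CPM in granulocyte progenitors to 572 CPM in mature B cells, with 517 CPM in B progenitors and 483 CPM in mature neutrophils. In the MYC library its highest levels were 799 CPM in plasma cells, 761 CPM in 16 B progenitors and 625 CPM in mature B cells. Egr1 was at 150 and 239 CPM in mature neutrophils and at 117 and 161 CPM in basophils or mast cells. Ier2, a nuclear protein gene induced by growth factors, was at 533 and 791 CPM in mature neutrophils and at 352 and 451 CPM in basophils or mast cells.

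Nr4a1 stood apart from the others. The receptor is known to be needed for the patrolling monocytes that survey vessel walls. It was at 47.6 and 31.7 CPM in monocytes and at 45.0 and 65.5 CPM in macrophages, with overlapping control intervals. Within the monocytes, a cluster led by Ace and Adgre4 (132 and 68 cells) held Nr4a1 at 403 and 244 CPM. The cluster led by Itga1 and Klf4 (362 and 553 cells) held it at 3.78 and 7.80 CPM and the one led by Arhgef37 and Ms4a8a (624 and 624 cells) at 46.9 and 50.3 CPM. In the Ace and Adgre4 cluster Nr4a1 was lower in the MYC library by a log2 ratio of -0.72 (-1.05 to -0.41), and so were Jun (-1.50, -1.93 to -1.09) and Zfp36 (-0.86, -1.17 to -0.56). In the Arhgef37 and Ms4a8a cluster the interval for Nr4a1 included 0 (0.10, -0.13 to 0.34). The Itga1 and Klf4 cluster went the other way, with Nr4a1 higher in the MYC library (0.88, 0.34 to 1.81) and Jun at 95.2 and 155 CPM (0.70, 0.56 to 0.85).

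Along the neutrophil lineage all 10 genes were higher at each later stage in the control, and 9 of the 10 in the MYC library. The exception was Fosb, at 1.20, 4.58 and 5.15 CPM in the control and at 4.95, 8.46 and 6.13 CPM in the MYC library. The boundary between immature and mature neutrophils was not fixed: a cluster led by Mmp8 and Gpr27 (1838 and 1695 cells) was named immature here, whereas clusters with both genes among their 3 leading ones were named mature at a clustering resolution of 0.5 and when each library was clustered on its own. With resolution 0.5, mature neutrophils were 4015 and 3302 cells, and 9 of the 10 genes were again higher at each later stage in both libraries, with Fosb the exception in both. Dusp1 was then at 12.7, 16.4 and 424 CPM over the stages in the control and at 12.3, 16.6 and 333 CPM in the MYC library. The following values are those of the boundary first described. Granulocyte progenitors (574 and 492 cells), immature neutrophils (4065 and 3860) and mature neutrophils (2202 and 1575) were set side by side. Junb was at 41.4, 142 and 1577 CPM over these stages in the control and at 58.1, 236 and 1488 CPM in the MYC library. Dusp1 was at 12.3, 46.8 and 783 CPM in the control and at 11.6, 50.3 and 620 CPM in the MYC library. Both genes thus differed most between immature and mature neutrophils. Egr1 was at 2.24, 15.8 and 150 CPM in the control and at 5.58, 73.2 and 239 CPM in the MYC library. Jun differed less along the stages than Junb, with 52.6, 118 and 220 CPM in the control and 81.1, 145 and 198 CPM in the MYC library. Nr4a1 remained low, at 1.72, 8.40 and 24.95 CPM in the control and at 2.53, 19.2 and 27.5 CPM in the MYC library. Median depth went the other way, from 19364 to 6635 to 3314 UMIs per cell in the control and from 18968 to 7789 to 4575 in the MYC library.

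**Figure D2:**
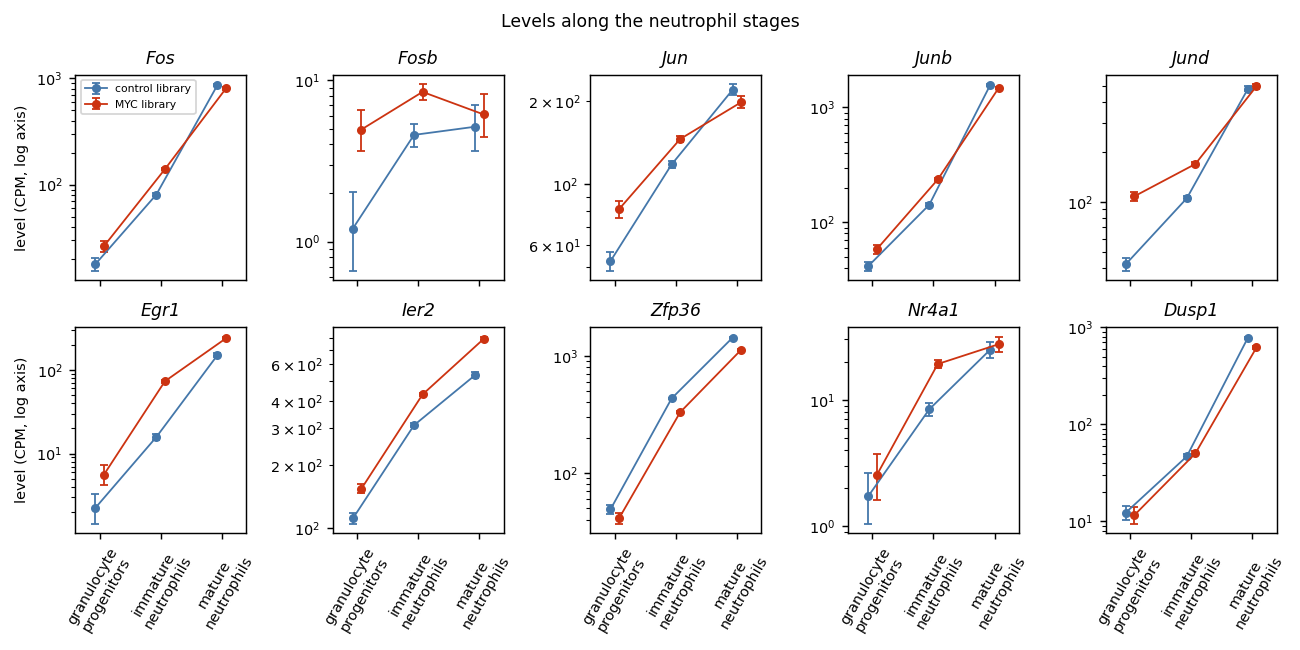
Level of each gene (CPM, log axis, a separate range per panel) in granulocyte progenitors, immature and mature neutrophils, with 95% counting intervals; blue is the control and red the MYC library. Points climb from left to right in all panels except Fosb in the MYC library, and the gap between the libraries is widest for Egr1 in immature neutrophils (15.8 and 73.2 CPM).

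Thinning each cell to 1000 UMIs, which holds depth equal, left the stages in the same order by the share of cells with several of the transcripts. At least 3 of the 10 genes had a UMI in 75.1% of mature neutrophils of the control (interval 73.2% to 76.9%) and 74.7% of the MYC library (72.5% to 76.8%). In immature neutrophils the shares were 13.6% (12.6% to 14.7%) and 22.7% (21.4% to 24.1%), and in granulocyte progenitors 0.524% (0.108% to 1.52%) and 1.02% (0.331% to 2.36%). Among the other classes, basophils or mast cells reached 30.6% and 36.6%, and erythroid cells 0.706% and 1.87%. Mature neutrophils therefore carried several of the transcripts in the same cell, with a median of 4 of the 10 in each library. In the low-depth clusters, where 679 and 651 cells had 1000 UMIs, the shares were 11.05% and 10.6%.

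How Jun UMIs were spread over cells with and without a Fos UMI differed between classes. In thinned cells of the B lineage, Jun had a UMI in 39.8% (30.7% to 49.5%) of 113 control cells with a Fos UMI and in 19.9% (17.6% to 22.3%) of the 1107 without. In the MYC library these shares were 57.1% of 21 cells and 23.4% of 218. In mature neutrophils the difference was small, with 19.2% (16.9% to 21.6%) against 16.9% (14.7% to 19.4%) in the control and 17.2% against 13.9% in the MYC library. Control immature neutrophils went the other way, with 6.99% (4.62% to 10.1%) of 372 cells against 11.2% (10.2% to 12.3%) of 3595, and in the MYC library their shares were both 12.6%. In T or NK cells of both libraries and in control erythroid cells no cell with a Fos UMI had one of Jun, of only 7, 4 and 23 such cells. Cells with UMIs of both were nevertheless more common among mature neutrophils, at 9.96% and 8.61% of thinned cells, than in the pooled B lineage, at 3.69% and 5.02%, but plasma cells within it stood at 12.2% and 13.8%. In plasma cells Jun had a UMI in 52.6% (39.0% to 66.0%) of 57 control cells with a Fos UMI and 33.9% (27.2% to 41.1%) of 189 without. Within mature B cells of the control the shares were 20.6% (8.70% to 37.9%) of 34 cells and 15.9% (12.9% to 19.3%) of 534.

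Between the libraries, the feedback genes Zfp36 and Dusp1 had ratios below 0 in most classes and Jund, Junb and Ier2 above 0, in classes whose median gene was itself below 0 (from -0.44 in the B lineage to -0.04 in erythroid cells). Zfp36 was below the median gene in 5 of the 8 classes and Dusp1 in 6. Egr1 alone passed 2-fold in any of the 8 classes. A ratio is given as the log2 of MYC over control CPM after adding 1 CPM to each, for genes with at least 50 UMIs in a class, and its counting interval is computed without the added CPM. Over the 8 classes 75 pairs of a member and a class could be measured. None was at least 2-fold lower in the MYC library, against 5.19% of all gene and class pairs. Of the 75 pairs, 3 were at least 2-fold higher (4.0%), against 2.09% of all pairs, and all 3 were Egr1. The counting interval lay below 0 in 20 pairs and above 0 in 37, while over all gene and class pairs it lay below 0 in 34.2% and above 0 in 18.3%. Other processing moved the count of higher pairs between 1 and 9 and that of lower pairs between 0 and 6, the latter with cells thinned. The shares of all pairs were not computed under other processing.

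Zfp36 was below 0 in 7 of the 8 classes, and in 6 of these the interval excluded 0. In the neutrophil lineage it was at 493 and 391 CPM (log2 ratio -0.33, -0.36 to -0.31), where 37.7% of all genes had a lower ratio. In monocytes it was at 217 and 139 CPM (-0.64, -0.73 to -0.56), the lowest of its ratios, with 12.8% of genes lower. Basophils or mast cells followed with 278 and 188 CPM (-0.56, -0.78 to -0.34) and stem or multipotent progenitors with 60.02 and 41.4 CPM (-0.52, -0.85 to -0.22). These 4 ratios kept their sign under every alternative that gave a value, except that of stem or multipotent progenitors when cells were thinned. In macrophages (-0.38) 3 alternatives turned it, and in the B lineage (-0.31, with 57.7% of genes lower) and T or NK cells (-0.05) median-of-ratios scaling did. Erythroid cells alone were above 0, at 30.03 and 32.8 CPM, with an interval that included 0 (0.12, -0.09 to 0.34) and a sign that turned under 6 alternatives. Not all cells of a class behaved alike: within the monocytes Zfp36 was lower in the Arhgef37 and Ms4a8a cluster (301 and 175 CPM) but not in the Itga1 and Klf4 cluster (98.5 and 106 CPM, 0.11, -0.04 to 0.26). In the low-depth clusters Zfp36 was also lower, at 358 and 220 CPM.

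Dusp1 was below 0 in 6 of the 8 classes, with 4 intervals excluding 0, and its macrophage ratio turned under 3 alternatives. Monocytes held it at 34.3 and 25.9 CPM (-0.39, -0.60 to -0.21), erythroid cells at 33.0 and 23.5 CPM (-0.47, -0.74 to -0.25) and stem or multipotent progenitors at 29.8 and 19.6 CPM (-0.58, -1.06 to -0.15), where 28.5%, 18.5% and 11.4% of genes had a lower ratio. In the neutrophil lineage it was at 146 and 124 CPM (-0.23, -0.28 to -0.19), close to the median gene with 48.4% of genes lower, a direction that was turned by median-of-ratios scaling and when the clusters were weighted equally in both libraries. Dusp1 was lower in the low-depth clusters as well, at 105 and 60.3 CPM. The classes above 0 were the B lineage and basophils or mast cells, with intervals that included 0 and signs that turned under 4 and 5 alternatives.

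Jund was above 0 in all 8 classes, and only in macrophages (0.03, -0.12 to 0.17) did the interval include 0 and the sign turn, under 5 alternatives. It was at 146 and 205 CPM in the neutrophil lineage (0.49, 0.45 to 0.53), at 347 and 539 CPM in basophils or mast cells (0.63, 0.48 to 0.79) and at 131 and 198 CPM in stem or multipotent progenitors (0.59, 0.42 to 0.76). Its highest ratio by stage was in granulocyte progenitors, at 41.9 and 108 CPM (1.35, 1.21 to 1.52), whereas in mature neutrophils it was at 483 and 501 CPM (0.05, -0.01 to 0.12). In the low-depth clusters Jund went the other way, at 187 and 123 CPM (-0.61, -0.82 to -0.40). Junb was above 0 in 7 classes, from 0.21 (0.19 to 0.24) in the neutrophil lineage to 0.69 (0.53 to 0.90) in erythroid cells, where it was at 30.6 and 50.2 CPM; in the neutrophil lineage averaging over cells or thinning turned it, and in T or NK cells thinning did. Ier2 was also above 0 in 7 classes, with 66.1 and 122 CPM in the B lineage (0.88, 0.69 to 1.08) and 297 and 432 CPM in the neutrophil lineage (0.54, 0.51 to 0.57). In monocytes its ratio of 0.04 turned under 4 alternatives. Macrophages were its exception, at 130 and 103 CPM (-0.33, -0.54 to -0.12).

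Egr1 gave the only pairs past 2-fold. In the neutrophil lineage it was at 32.4 and 84.3 CPM (1.35, 1.30 to 1.46), past a fold that 0.52% of all genes of the lineage reached upward and 1.77% downward. By stage the difference was greatest in immature neutrophils, as their boundary is drawn here, where 517 UMIs in the control stood against 2534 in the MYC library (15.8 and 73.2 CPM, 2.14, 2.08 to 2.35). It held in each of the 4 immature clusters: 14.998 and 121 CPM in the one led by Mmp8 and Gpr27, 26.1 and 114 CPM in the one led by AA467197 and Zmpste24, 10.1 and 31.0 CPM in the one led by Orm1 and Chil3, and 9.66 and 27.5 CPM in the one led by Spp1 and Fcnb. It was also spread over more cells: the 1% of immature neutrophils richest in Egr1 held 31.7% of its control UMIs and 11.5% of its MYC UMIs. After thinning to 1000 UMIs, 1.24% (0.915% to 1.63%) of control and 7.87% (7.03% to 8.77%) of MYC immature neutrophils had an Egr1 UMI. Before thinning the shares were 8.04% and 31.8%. Erythroid cells, which had little Egr1, reached 0.141% and 1.12% after thinning, and the low-depth clusters 1.62% (0.811% to 2.88%) and 4.45% (3.003% to 6.34%). The control share of immature neutrophils was thus no higher than in the low-depth clusters, and the MYC share was.

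In erythroid cells Egr1 was at 3.15 and 10.6 CPM (1.48, 1.26 to 2.23), on 71 and 78 UMIs, of which the richest 1% of cells held 60.6% and 48.7%. In T or NK cells it was at 19.7 and 41.4 CPM (1.03, 0.42 to 1.70) on 57 and 35 UMIs, and this ratio turned to -1.56 when cells were thinned. Egr1 was not higher everywhere. In stem or multipotent progenitors it was lower, at 30.5 and 21.8 CPM (-0.47, -0.93 to -0.05), and in monocytes (0.08), macrophages (0.06) and the B lineage (-0.12) the interval included 0. Of all genes, 2.78% were at least 2-fold higher and 2.61% lower in erythroid cells, and 1.9% higher and 3.52% lower in T or NK cells. In the other classes, where no member passed 2-fold, the shares higher and lower were 1.84% and 3.59% in monocytes, 4.97% and 7.29% in macrophages, 2.86% and 17.4% in the B lineage, 0.845% and 1.47% in stem or multipotent progenitors, and 1.18% and 3.98% in basophils or mast cells.

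By stage, 3 of the 9 members measured in granulocyte progenitors were at least 2-fold higher and none lower, where 0.642% of all genes were higher and 2.37% lower. These were Jund, Egr1 (2.24 and 5.58 CPM) and Fosb (1.20 and 4.95 CPM, 1.43, 1.15 to 3.01), the last on 14 and 47 UMIs. In immature neutrophils 2 of 10 were higher and none lower, Egr1 and Nr4a1 (1.10, 0.99 to 1.40), where 1.35% of all genes were higher and 1.53% lower. At resolution 2 and with each library clustered on its own 4 passed, as Fos (40.5 and 98.1 CPM at resolution 2) and Junb (69.2 and 153 CPM) joined them, and at resolution 0.5 only Egr1 did, with Nr4a1 at 0.94. The shares of all genes past 2-fold were not computed for these other clusterings. In mature neutrophils none of the 10 passed 2-fold in either direction, where 1.9% of all genes were higher and 6.67% lower. With the boundary of resolution 0.5, Egr1 was past 2-fold in both stages, with log2 ratios of 1.66 in immature neutrophils, where it was at 15.3 and 50.6 CPM, and 1.14 in mature neutrophils, where it was at 76.5 and 170 CPM.

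Fos, Fosb and Jun differed in both directions between classes. Fos was higher in the MYC library in the neutrophil lineage (181 and 214 CPM, 0.24, 0.20 to 0.28, turned by averaging over cells and by thinning), the B lineage (178 and 249 CPM, turned by weighting clusters equally) and erythroid cells (15.3 and 21.1 CPM, turned by averaging over cells). It was lower in monocytes (198 and 177 CPM, -0.16, -0.24 to -0.09, turned when each library was clustered on its own) and in stem or multipotent progenitors (29.5 and 19.0 CPM, -0.61, -1.11 to -0.18, turned with doublets kept). Jun was at 23.1 and 46.8 CPM in erythroid cells (0.99, 0.82 to 1.22) and at 58.4 and 34.3 CPM in T or NK cells (-0.75, -1.39 to -0.19, turned when cells were classed by markers alone). Fosb was at 2.44 and 5.14 CPM in erythroid cells (0.84, 0.44 to 1.70) and at 15.9 and 8.41 CPM in stem or multipotent progenitors (-0.84, -1.62 to -0.25).

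**Figure D3:**
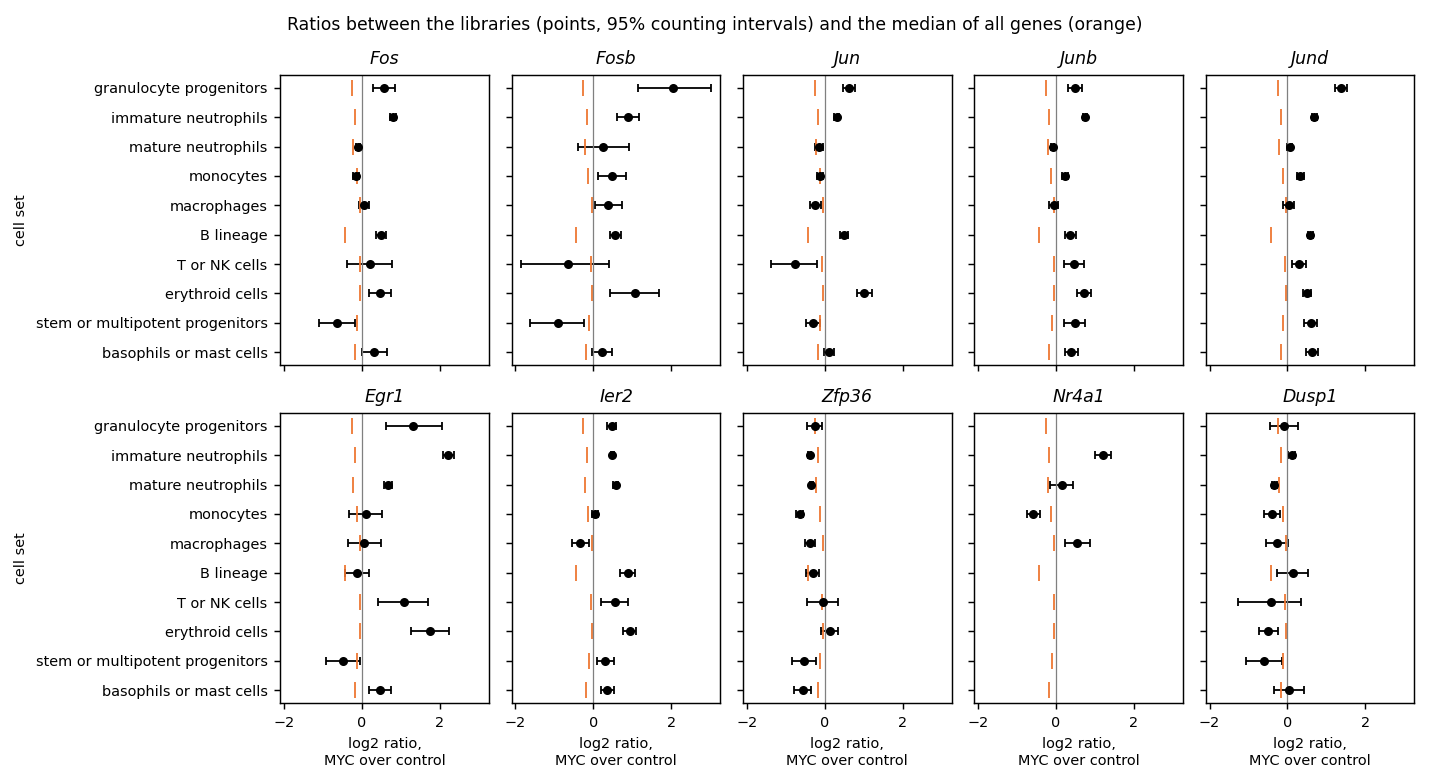
Log2 ratio of MYC over control CPM for each gene (panels) in 10 cell sets (rows), with points computed without a pseudocount and bars for 95% counting intervals; the orange tick is the median of all genes measured in that set. Jund points lie at or right of 0 in all rows and Zfp36 points at or left of 0 in all rows but erythroid cells, while Egr1 lies farthest right in immature neutrophils. Sets with under 50 UMIs of a gene have no point.

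The members' median log2 ratio lay above that of all genes in 7 of the 8 classes. Its interval over genes, which are not replicates, lay wholly above the all-gene median in 3, the B lineage, erythroid cells and basophils or mast cells. The members' median was 0.37 in the neutrophil lineage, with an interval by order statistics over genes of -0.23 to 0.83, where the median of all 11725 genes was -0.22. By stage it was 0.54 in granulocyte progenitors (-0.08 to 1.35), 0.71 in immature neutrophils (0.10 to 1.10) and -0.02 in mature neutrophils (-0.34 to 0.57), against all-gene medians of -0.26, -0.17 and -0.22. It was 0.69 in erythroid cells (0.12 to 0.99, all genes -0.04), 0.48 in the B lineage (-0.12 to 0.59, all genes -0.44, turned to -0.06 when clusters were weighted equally) and 0.32 in basophils or mast cells (0.04 to 0.46, all genes -0.18). In T or NK cells it was 0.20 (-0.59 to 0.54, all genes -0.06), with a sign that turned under 2 alternatives. In monocytes (-0.04) and macrophages (-0.02) it lay within 0.1 of the all-gene medians of -0.13 and -0.05, and other processing turned it under 4 and 6 alternatives. The monocyte value pooled clusters that went opposite ways: the median was 0.66 in the Itga1 and Klf4 cluster, with 9 of the 10 members above 0 (all genes -0.15), -0.09 in the Arhgef37 and Ms4a8a cluster and -0.37 in the Ace and Adgre4 cluster. Stem or multipotent progenitors had the lowest value, at -0.47 (-0.61 to 0.47, all genes -0.12), where 6 of the 9 measured members were below 0 and Junb, Jund and Ier2 above. That interval included 0, and with at least 200 UMIs required the median of stem or multipotent progenitors was 0.31.

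The median near 0 in mature neutrophils combined clusters of unlike size in the libraries. Most control cells were in a cluster led by Ptgs2, Il1b and, among its 10 leading genes, Dusp1 (1673 control and 284 MYC cells). Most MYC cells were in a cluster led by Stfa2 and Cstdc4 (238 and 1218 cells). The control cluster had the higher levels: Fos was at 982 CPM there and at 588 CPM in the Stfa2 cluster of the same library, and Junb at 1795 and 1064 CPM. Within either cluster most members were higher in the MYC library. In the Ptgs2 cluster Fos was at 982 and 1167 CPM (0.25, 0.16 to 0.34), Junb at 1795 and 2125 CPM (0.24, 0.18 to 0.31) and Egr1 at 183 and 406 CPM (1.15, 0.98 to 1.31). In the Stfa2 cluster Fos was at 588 and 768 CPM (0.38, 0.26 to 0.52), Junb at 1064 and 1420 CPM (0.42, 0.32 to 0.51) and Egr1 at 39.0 and 216 CPM (2.44, 1.99 to 2.99). The members' medians were 0.30 and 0.42 in these clusters, with Zfp36 the single measured member below 0 in each (-0.07 and -0.11), and 0.27 for the stage when clusters were weighted equally. Dusp1 was at 910 and 969 CPM in the Ptgs2 cluster and at 533 and 582 CPM in the Stfa2 cluster, with intervals that included 0, so its lower pooled level was not found within them. In the remaining cluster, led by interferon-induced Ifit genes (291 and 73 cells), Fos was at 571 and 451 CPM (-0.34, -0.58 to -0.11) and Dusp1 at 411 and 279 CPM (-0.56, -0.86 to -0.27). The members' median in the Ifit cluster was -0.28, close to its all-gene median of -0.30. In the Ptgs2 and Stfa2 clusters the all-gene medians were -0.15 and -0.09.

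**Figure D4:**
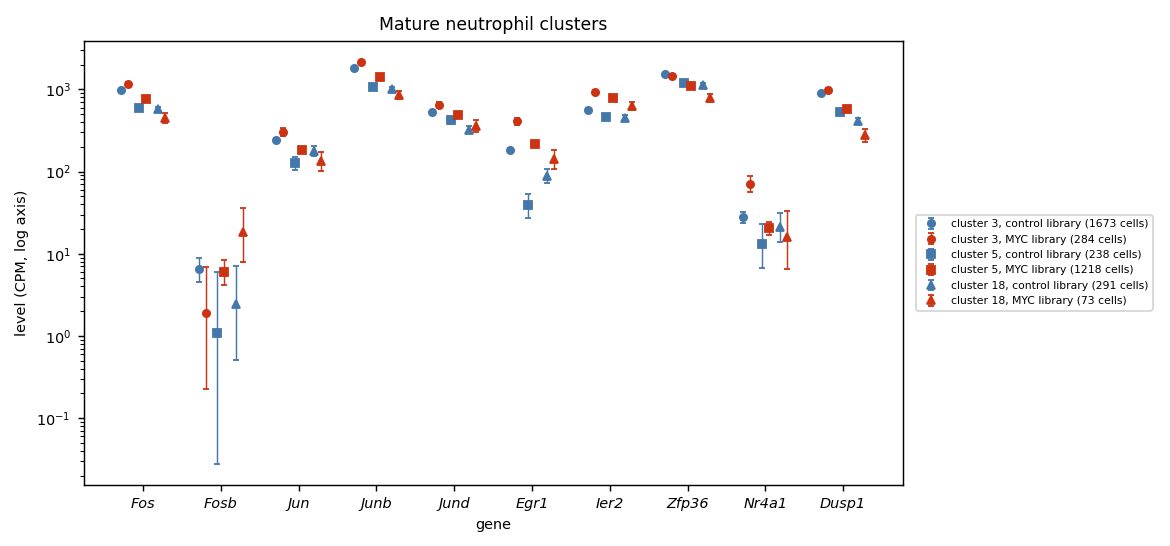
Level of each gene (CPM, log axis) in the 3 mature neutrophil clusters, blue for the control and red for the MYC library, with 95% counting intervals; cluster 3 is led by Ptgs2, cluster 5 by Stfa2 and cluster 18 by Ifit genes. Within clusters 3 and 5 the red points for Fos, Junb, Egr1 and Ier2 lie above the blue ones, although cluster 3 as a whole lies above cluster 5.

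Macrophages and B cells also lay in clusters of unlike size. Most control cells of the class called macrophages lay in a cluster led by H2-Eb1 and Mrc1 (247 and 184 cells). Of its 10 leading genes 5 serve antigen presentation by MHC class II (H2-Eb1, H2-Ab1, H2-Aa, Ciita and Cd74), which is also a trait of dendritic cells, and 2 were macrophage markers. At resolution 2, with no mitochondrial filter and in the MYC library clustered alone, a cluster led by these MHC class II genes was named conventional dendritic cells. Pooled macrophage values thus mix clusters of unlike make-up. Most MYC macrophages lay in a cluster led by C1qb and C1qc (20 and 632 cells). Nr4a1 was higher in MYC macrophages when pooled (0.53, 0.22 to 0.88, turned by thinning and by weighting clusters equally) but lower within both clusters, at 38.5 and 23.2 CPM (-0.70, -1.31 to -0.17) and at 164 and 84.9 CPM (-0.94, -1.61 to -0.20), the second with 20 control cells. In the H2-Eb1 cluster the members' median was -0.51, Fos was at 285 and 150 CPM (-0.93, -1.15 to -0.72) and Zfp36 at 338 and 193 CPM (-0.81, -1.001 to -0.62), whereas Jund was at 248 and 293 CPM (0.24, 0.06 to 0.42). The B lineage held 410 B progenitors, 581 mature B cells and 248 plasma cells in the control but 16, 140 and 87 in the MYC library. Within mature B cells the members' median was -0.14 (all genes -0.29), with Jun at 173 and 111 CPM (-0.64, -1.01 to -0.29), against a pooled ratio of 0.49 for Jun. Of the 9 members measured in mature B cells none was at least 2-fold higher and 1 was lower, Egr1 at 37.3 and 17.8 CPM (-1.03, -2.06 to -0.21), where 1.79% and 9.91% of all genes were. Within plasma cells Jund was at 442 and 799 CPM (0.85, 0.76 to 0.95) and Ier2 at 77.7 and 131 CPM (0.75, 0.52 to 0.99), while the intervals of Fos (-0.04) and Fosb (-0.02) included 0. Here 87 MYC cells were measured.

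Plasmacytoid dendritic cells had under 100 cells in the MYC library (246 and 64 cells) but held large amounts of AP-1 transcripts. Fosb was at 148 CPM in the control (338 UMIs) and at 38.8 CPM in the MYC library (26 UMIs), a log2 ratio of -1.91 (-2.57 to -1.36). Jun was at 554 and 218 CPM (-1.34, -1.60 to -1.10) and Fos at 79.9 and 37.3 CPM (-1.08, -1.76 to -0.49), and Jund was at 413 and 255 CPM (-0.69, -0.94 to -0.46). Of the 7 members measured there 6 were below 0, 3 were at least 2-fold lower and none higher, where 7.5% of all genes were lower and 6.27% higher. Ier2 was the exception, at 43.5 and 53.7 CPM with an interval that included 0. In basophils or mast cells, which are also rich in these transcripts, Jun was at 653 and 708 CPM and Fosb at 147 and 172 CPM, and the difference between the classes was not tested.

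The erythroid differences were found at low levels. The members' medians were 0.41, 0.71 and 0.84 in the 3 erythroid clusters, led by Hemgn, Mt2 and Tmcc2, the last over 5 measured members. Erythroid cells held the 10 genes at a summed 279 CPM in control and 406 CPM in MYC cells. Transcripts of neutrophils, which erythroid cells should lack, were also higher in MYC erythroid cells: Camp was at 1073 and 2116 CPM and S100a9 at 5046 and 9288 CPM, and in the B lineage S100a9 was at 4663 and 9435 CPM. In stem or multipotent progenitors, where the members' median was negative, these were lower in the MYC library, with Camp at 1130 and 335 CPM and S100a9 at 4326 and 2714 CPM. Of the 9 tracers of free RNA, 7 were above 0 in erythroid cells (median 0.29) and 7 below 0 in stem or multipotent progenitors (-1.02). All 9 were below 0 in monocytes (-0.63) and 7 in basophils or mast cells (-0.83), the classes with the lowest Zfp36 ratios, although the members' median was positive in basophils or mast cells. In macrophages 6 of the 9 were above 0 (0.34). The tracers also include the globin genes Hba-a1, Hba-a2, Hbb-bs and Hbb-bt, which are erythroid cells' own transcripts. The erythroid count and median of the tracers are therefore not measures of free RNA alone. In mature neutrophils, the class richest in most members, Camp and S100a9 are their own transcripts. The part of free RNA in these ratios was not tested.

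The other genes of the pathway had lower medians than the members in most classes, a difference between lists that was not tested. Of 22 upstream kinases and serum response or CREB family factors, 19 were below 0 in the neutrophil lineage and none was 2-fold lower, where 1.77% of all genes were. Their median log2 ratio was -0.39 (-0.54 to -0.23) there, -0.34 in monocytes and -0.25 in erythroid cells, below the all-gene medians of -0.22, -0.13 and -0.04. It was negative in all 8 classes under every alternative except for stem or multipotent progenitors when cells were thinned (0.024). The 29 other immediate early genes, 28 of them measured, stood at a median of -0.02 across the neutrophil lineage, with 14 below 0 and 10 below the all-gene median of -0.22. Of the 28, 1 was at least 2-fold higher, where 0.52% of all genes were. In the neutrophil lineage that gene was Cxcl2, a chemokine that draws neutrophils, at 31.5 and 145 CPM (2.17, 2.13 to 2.28), and it was among the genes leading the Stfa2 cluster. In the same lineage Klf2, a zinc finger factor of quiescent leukocytes, was at 229 and 446 CPM (0.96, 0.93 to 0.99). Dusp5, a nuclear phosphatase of ERK kinases, was at 5.16 and 2.39 CPM. Among the 13 other AP-1 and partner genes measured in the neutrophil lineage 9 were below 0 and 7 below the all-gene median, with Fosl2, a Fos family member, at 83.5 and 44.0 CPM (-0.91, -0.999 to -0.85) and Batf3 at 0.154 and 1.03 CPM. In erythroid cells the other immediate early genes went the same way as the members, with a median of 0.22 (-0.09 to 0.70, all genes -0.04), 6 of 22 below 0 and 3 at least 2-fold higher, where 2.78% of all genes were.

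Monocytes showed 3 other immediate early genes past 2-fold higher and 1 past 2-fold lower, where 1.84% and 3.59% of all genes were. Socs3, a feedback inhibitor of cytokine receptors, was at 4.25 and 23.7 CPM (2.23, 2.06 to 2.92). Ier3 was at 5.46 and 18.8 CPM and Cxcl2 at 2.17 and 8.64 CPM. Tnfaip3, the ubiquitin-editing inhibitor of NF-kB, was at 13.2 and 5.89 CPM (-1.04), and Fosl2 again lower, at 91.0 and 38.6 CPM (-1.22, -1.38 to -1.10). In erythroid cells Cxcl2 was at 1.55 and 7.99 CPM, Ier3 at 3.55 and 14.3 CPM and Batf at 1.95 and 7.31 CPM, and the CREB family gene Crem was at 8.08 and 3.79 CPM. In stem or multipotent progenitors Klf2 was at 19.3 and 38.6 CPM (0.96), Ier3 at 19.6 and 32.7 CPM (0.71) and Batf at 19.8 and 27.4 CPM (0.45), whereas Nfkbiz was at 13.6 and 6.85 CPM (-0.90) and Btg1 at 94.99 and 52.0 CPM (-0.86). The ratios of Klf2, Ier3 and Nfkbiz in stem or multipotent progenitors each turned under 1 alternative.

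The genes whose log2 level went most closely with the members' mean profile over the same 20 points were Neurl3 (r = 0.90), Nfkbiz (r = 0.90), Klf6 (r = 0.90), Iqgap1 (r = 0.88) and Inpp5k (r = 0.88), out of 5738 genes whose mean level reached 20 CPM. Among the members themselves Junb came closest to that mean, which includes it (r = 0.97), and Fosb was the farthest listed (r = 0.50).

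Heat shock genes, which are also known to be induced by tissue dissociation, had a summed level that differed between the libraries by a log2 ratio of -0.25 in the B lineage to 0.23 in monocytes, the extremes over the 8 classes. The sum was 1637 and 1640 CPM in the neutrophil lineage, 3045 and 3569 CPM in monocytes and 4739 and 4977 CPM in erythroid cells. Of the heat shock genes measured, 7 of 11 were below 0 in the neutrophil lineage (4 below the all-gene median), 7 of 12 in monocytes, 7 of 10 in the B lineage and 2 of 8 in T or NK cells. Single genes differed more. Hsph1, a co-chaperone of Hsp70, was at 5.76 and 2.45 CPM in the neutrophil lineage, at 55.5 and 29.8 CPM in erythroid cells and at 46.1 and 24.6 CPM in stem or multipotent progenitors. Hspa1b, an inducible Hsp70, was at 5.06 and 1.72 CPM in monocytes and at 4.26 and 0.271 CPM in erythroid cells. Others were higher, of which 2 were picked after their values were seen: Hspb1, a small heat shock protein, at 4.55 and 24.4 CPM in the B lineage (2.19, 1.87 to 2.98), and Hspe1, a mitochondrial co-chaperonin, at 127 and 193 CPM in monocytes (0.60, 0.52 to 0.69).

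The share of mitochondrial UMIs went with the members' summed level in some classes. Over all kept cells the sum was 2941 and 3256 CPM in cells under 1% and 619 and 873 CPM in cells with 5% to 10%. These pooled sums mix classes of unlike level. Of the 4192 control cells under 1%, 1787 were mature neutrophils, and of the 1982 with 5% to 10%, 29 were. Mature neutrophils, which have few mitochondrial UMIs, were level: 6062 CPM under 1% and 6676 CPM at 5% to 10% in the control, and 5803 CPM under 1% and 5871 CPM at 3% to 5% in the MYC library. In control monocytes the sum was 1950 CPM at 1% to 2% and 708 CPM at 5% to 10%, and in MYC monocytes it was 1129 and 937 CPM in these bins. The control was thus the higher library in the first of these bins and the lower in the last. Immature neutrophils of the MYC library were higher in each of the 5 bins, from 1884 and 2365 CPM under 1% to 1047 and 1347 CPM at 5% to 10%. Erythroid cells of the MYC library were also higher in each bin. Barcodes with 10% or more mitochondrial UMIs (1475 and 1592), which were left out, held Fos at 89.8 and 158 CPM and Egr1 at 17.4 and 29.3 CPM.

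**Figure D5:**
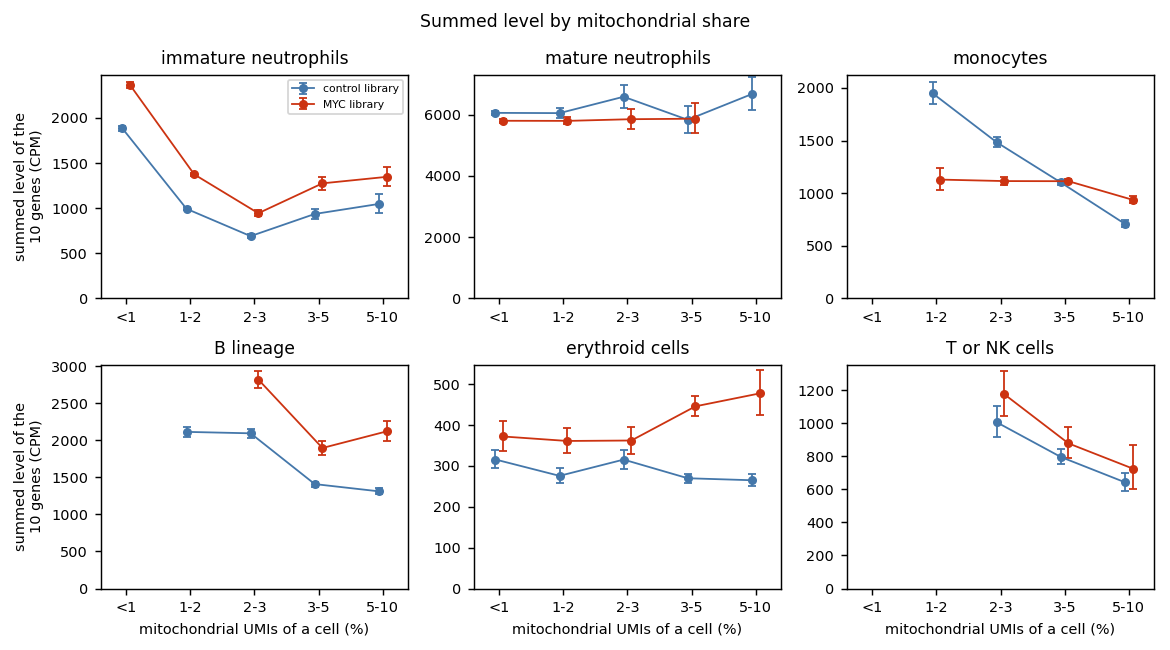
Summed level of the 10 genes (CPM, linear axis from 0) by the mitochondrial share of a cell, in 6 cell sets, for the control (blue) and MYC (red) libraries with 95% counting intervals; bins with under 20 cells are not drawn. Mature neutrophils are flat, control monocytes go from 1950 to 708 CPM, and MYC immature neutrophils lie above the control in each bin.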

How the data were processed

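The deposited values were UMI counts per gene and barcode, whole numbers that per the file headers came from Cell Ranger 6.0.0. The submitters' processing notes name Cell Ranger 6.0, Seurat, GRCm38 and mm10. The members and lists were chosen with earlier results of these data known.

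Cells were kept with at least 500 UMIs, 200 genes and under 10% mitochondrial UMIs. Doublets were removed at a Scrublet (scanpy 1.11.5) score above 0.2 in both libraries, since the automatic threshold marked 0 cells in the MYC library, a choice made after this was seen. It removed 3.61% and 2.76%, where 13.7% and 11.6% would be expected at 0.8% per 1000 barcodes. Both libraries were clustered together (leidenalg 0.10.2, resolution 1, 15 neighbours, 30 components, 2000 variable genes without mitochondrial, ribosomal, immunoglobulin, T-cell receptor, Gm42418, Myc, MYC and listed genes). A cluster took the highest-scoring of 18 types by markers with at least 3 detected, unless another class had more markers among its 10 leading genes. That wording, and leaving clusters under 0.2 of the library's median depth unnamed, were set after the data were seen. A cluster of low depth above that bound was also left unnamed if none of its type's markers was among the 10 leading genes. Klf4 is a monocyte marker and a listed gene. A further cluster (329 and 424 cells) stayed unnamed by the marker rule.

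UMIs were summed per class and library and scaled to CPM. Intervals were exact Poisson for levels, exact conditional binomial for ratios and Clopper-Pearson for shares. Only those of ratios were tested on simulated data, Poisson counts of monocyte totals that leave out spread between cells. PCR duplicates were collapsed by UMI. Named genes were all members, and from the other lists in 4 sets the 3 highest and 3 lowest ratios with at least 50 UMIs and an interval excluding 1; the 5 likest genes needed a mean of 20 CPM. Alternatives covered scaling, filters, doublets, clustering, pseudocount, thinning and cluster weights. Of the features, 99.6% matched GENCODE vM21. No correction for free RNA was made.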

Additional observations from a re-analysis of the deposited data

Results flagged for a closer look

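Fosb differed in direction between erythroid cells (log2 ratio 0.84) and stem or multipotent progenitors (-0.84), a gap of 1.68 that was not tested, since there is 1 library per group; Fosb had 55 and 38 UMIs in erythroid cells and 64 and 27 in stem or multipotent progenitors.

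Jun differed in direction between erythroid cells (0.99) and T or NK cells (-0.75), a gap of 1.74 that was not tested either; the T or NK ratio rests on 169 and 29 UMIs and turned when cells were classed by markers alone.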

How the results depend on the processing

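Of 104 member ratios, 82 had a counting interval that excluded 0, and 56 of these kept their sign under every one of up to 20 alternatives, while 26 turned under at least 1. Of 24 ratios of other named genes 21 kept their sign. Of 218 recomputed class and stage medians, 209 stayed within the interval of the reported value, which is wide over 10 genes or fewer. Of 11 members' medians 5 kept their sign under every alternative, and of 44 medians of the other lists 18 did. Median-of-ratios scaling centres each class on its median gene (the all-gene median was -0.44 in the B lineage and -0.04 in erythroid cells), and gave members' medians of 0.94 in the B lineage and 0.50 in basophils or mast cells. In macrophages the median was 0.55 with no mitochondrial filter, 0.50 at resolution 0.5, 0.45 at resolution 2 and 0.39 with cells classed by markers alone, against -0.02 as reported; the cause was not tested. In erythroid cells it was 1.13 as a mean over cells. In stem or multipotent progenitors it was -0.61 without the 20 most abundant genes and -0.74 with cells thinned. At resolution 0.5 and with each library clustered on its own, at least 1 library had under 20 cells of that name, so no value was had. The median of mature neutrophils kept its sign in 11 of 20 alternatives.

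The count of pairs at least 2-fold higher, 3 as reported, was 9 under median-of-ratios scaling, 8 at resolution 2, 7 with no mitochondrial filter and at resolution 0.5, and 6 with no filter on genes. It was 5 as a mean over cells, under 5% mitochondrial UMIs, with markers alone, with a pseudocount of 0.1 CPM, with at least 20 UMIs and with clusters weighted equally, and 1 with a pseudocount of 10 CPM or at least 200 UMIs. The count of pairs at least 2-fold lower, 0 as reported, was 6 with cells thinned, 2 as a mean over cells and without the richest cell, and 1 with no mitochondrial filter and with clusters weighted equally. The shares of all gene and class pairs (2.09% higher and 5.19% lower) were computed for the reported setting alone. Whether the moves in these counts are particular to the members was therefore not tested. Among ratios past 2-fold and list medians with an interval excluding 0, those that changed sign were Egr1 in T or NK cells (-1.56) and the upstream kinases in stem or multipotent progenitors (0.024), both with cells thinned.

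No paired analysis was possible because each group has 1 library. Depth limits Nr4a1, which had at least 50 UMIs in only 3 of the 8 classes, and Fosb in T or NK cells (48 and 9 UMIs), stem or multipotent progenitors (64 and 27) and erythroid cells (55 and 38).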

Other observations

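Megakaryocytes (60 and 61 cells) held Zfp36 at 222 CPM on 83 UMIs in the control and at 91.2 CPM on 27 UMIs in the MYC library (-1.28, -1.97 to -0.64), the only member with at least 50 UMIs there.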
